A study of Homo sapiens with 14 samples.

Results

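The 3′ untranslated regions (3′ UTRs) of protein-coding transcripts were described by their reactivity to 2 RNA structure probes in K562, an established human cell line from chronic myelogenous leukemia. A 3′ UTR was taken as every nucleotide after the annotated stop codon of 1 transcript per gene, the one of highest mean expression among those present in all 4 profiles. It entered when at least 100 of its nucleotides were scored in each profile. This left 964 3′ UTRs out of 20512 transcripts found in any profile, and 318 further genes were left out for having fewer scored nucleotides. In 313 of those 318 the annotated 3′ UTR was shorter than 136 nt. The coding sequence (CDS) of the same transcripts served for comparison, and 953 of them had at least 100 scored CDS nucleotides in every profile.

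The study set icSHAPE beside icLASER, in living cells (in vivo) and on RNA that was isolated and refolded outside cells (in vitro). In icSHAPE, NAI-N3 was applied at 100 mM for 5 min and acylates flexible 2′-hydroxyls, and DMSO served as control. In icLASER, NAz-N3 was added from a 1 M stock and activated by 10 min of UV light, attaching to the C8 position of solvent-exposed purines, and samples without UV served as control. There were 3 icSHAPE in vivo, 2 icSHAPE in vitro, 2 icLASER in vivo, 2 icLASER in vitro, 3 DMSO and 2 no-UV libraries, all from the same cell line after poly-A selection. They were deposited as 4 profiles, 1 for each reagent and condition, so no replicate error could be attached to any value below. Spreads are over transcripts or sites, which are not replicates, and no test was made.

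The 3′ UTR carries much of the regulation of an mRNA after transcription. Pumilio proteins, AU-rich element binding proteins and microRNAs bind there and alter stability and translation, and the cleavage and polyadenylation machinery sets the 3′ end. Elongating ribosomes normally leave the mRNA at the stop codon, so the 3′ UTR, unlike the CDS, is not routinely traversed by them.

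Short stretches of 3′ UTR that carry the binding sites followed below are shown first, from GENCODE 44 (GRCh38). They lie in the most highly expressed 3′ UTRs in which the site and its flanks were scored in all 4 profiles. The Pumilio element UGUANAUA is in capitals, with 11 nt on each side, in TUBB (beta-tubulin, ENST00000330914, chr6:30724738-30724767, plus strand), SUMO2 (a ubiquitin-like modifier, ENST00000314523, chr17:75168168-75168197, minus strand) and TOMM6 (a mitochondrial import protein, ENST00000398884, chr6:41789779-41789808, plus strand).
TUBB: cugaaaacacaUGUAGAUAauggccaucau
SUMO2: cauuccuuuauUGUACAUAaaguaacuggu
TOMM6: cuguaaaguucUGUACAUAguucccaagcu

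The AU-rich heptamer UAUUUAU, which holds the pentamer AUUUA, is in capitals in CEBPZOS (ENST00000397226, chr2:37202052-37202080, plus strand), GDF15 (a stress-induced cytokine, ENST00000252809, chr19:18389037-18389065, plus strand) and RANBP1 (a regulator of the Ran GTPase, ENST00000402752, chr22:20127295-20127323, plus strand).
CEBPZOS: uuuucuucucaUAUUUAUugucaaagaua
GDF15: ccaaacagcugUAUUUAUauaagucuguu
RANBP1: guggaaacacuUAUUUAUagucaucaaaa

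The 964 3′ UTRs had a median annotated length of 433 nt (quartiles 249 and 823.5, range 130 to 10219). Their median A plus U content was 58.8%, above the 49.3% of the CDS, and 824 of them (85.5%) were richer in A and U than their own CDS. Median expression was 16.2 RPKM (quartiles 11.1 and 29.7), averaged over the 4 profiles. Annotation limits what each of them stands for, since 47 were the Ensembl canonical transcript of their gene, 730 had the canonical stop codon and 510 ended within 25 nt of the canonical 3′ end. In 156 of them some nucleotides were coding in the canonical transcript, and for 937 another transcript of the gene was also in a profile and could share reads. Scores cover 99.6% of 3′ UTR nucleotides up to the last 30, none of which was scored.

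The scores are scaled within each transcript, so they compare a 3′ UTR with the rest of its own mRNA. In the median transcript, 5.03% to 5.04% of scored nucleotides carried the top score of 1 in every profile. A 3′ UTR low in score therefore implies other parts of the same transcript with more than their share of high scores. In icSHAPE in vivo 3.22% of the 3′ UTR nucleotides and 5.92% of the CDS nucleotides had a score of 1, while in icLASER in vivo the shares were 4.16% and 5.22%. Scores of exactly 0 took 40.9%, 58.8%, 42.8% and 41.6% of 3′ UTR nucleotides in icSHAPE in vivo, icSHAPE in vitro, icLASER in vivo and icLASER in vitro.

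3′ UTRs scored lower than the CDS of the same mRNA in 3 of the 4 profiles, and icLASER in vivo was the exception. In icSHAPE in vivo the median 3′ UTR mean was 0.149 (quartiles 0.122 and 0.167) against 0.201 for the CDS. The median difference within a transcript was -0.0584, and the 3′ UTR was higher in 79 of 954 transcripts (8.28%). In icSHAPE in vitro the medians were 0.119 and 0.170, with a difference of -0.0539 and the 3′ UTR higher in 136 of 954. In icLASER in vitro they were 0.116 and 0.184, with a difference of -0.0727 and the 3′ UTR higher in 112 of 953. For icLASER in vivo they were 0.168 and 0.175, the median difference was -0.00416, and the 3′ UTR was higher in 440 of 954 transcripts (46.1%). At a difference of at least 0.05, 1.68% of 3′ UTRs were higher and 56.9% lower than their CDS in icSHAPE in vivo. By icLASER in vivo these shares were 21.9% and 25.1%. The icLASER in vivo difference took the other sign, 0.00334, when transcripts needed to be present in that profile alone. It was further below 0 as the share of nucleotides scoring at least 0.5, at -0.0180, and without the last 230 nt, at -0.0266. The other 3 profiles had -0.0488, -0.0403 and -0.0626 without the last 230 nt, in icSHAPE in vivo, icSHAPE in vitro and icLASER in vitro.

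The lower 3′ UTR scores of the 3 profiles were also seen when equal trinucleotides were compared. Centred on the scored base and weighted equally for both regions, the 3′ UTR minus CDS difference was -0.0780 in icSHAPE in vivo, -0.0632 in icSHAPE in vitro and -0.0482 in icLASER in vitro. All 64 trinucleotides scored lower in the 3′ UTR in each of those profiles. In icLASER in vivo the matched difference was -0.00363, with 24 trinucleotides higher and 40 lower in the 3′ UTR.

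The contexts with the widest gap differed between the reagents. In icSHAPE in vivo, GUA had a mean of 0.280 in 3′ UTRs and 0.515 in the CDS, while GCG had 0.0517 and 0.0552. In icLASER in vitro, UGA had 0.447 in 3′ UTRs and 0.591 in the CDS. In icLASER in vivo the same UGA had 0.449 and 0.499, and UUU went the other way at 0.150 against 0.119. The sources used here do not state whether a score belongs to its own nucleotide or to a neighbour, so base names in this and the element comparisons may be off by 1 nt. In icSHAPE in vivo, 3′ UTR scores varied with the base after the centre, from 0.160 for CCA and 0.117 for CCU to 0.0524 for CCG and 0.0359 for CCC. By base, G had the highest icLASER score in 3′ UTRs, 0.290 in vivo and 0.277 in vitro, and C the lowest, 0.0812 and 0.0467. For icSHAPE the in vivo means in 3′ UTRs were 0.173 for A, 0.165 for U, 0.133 for G and 0.108 for C.

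In living cells the 3′ UTR scores were higher than in refolded RNA, while for icLASER the CDS median was slightly lower. Over nucleotides scored in both profiles, the icSHAPE in vivo minus in vitro difference had a median of 0.0278 in 3′ UTRs (quartiles 0.00568 and 0.0486) and was above 0 in 770 of 964. The CDS gave 0.0300, and the difference between the regions had a median of -0.00144. For icLASER the 3′ UTR median was 0.0483 (quartiles 0.0193 and 0.0860) and it was above 0 in 836 of 964. The CDS gave -0.00927 and was below 0 in 587 of 953. The 3′ UTR difference exceeded that of the CDS in 810 of 953 transcripts, by a median of 0.0663. As scores are scaled within each transcript, a gain in 1 region and a loss in the other are not independent. At a difference of at least 0.05, 23.4% of 3′ UTRs were higher and 2.07% lower in vivo by icSHAPE, and 49.2% were higher and 0.934% lower in vivo by icLASER. Without the last 230 nt, which left 598 transcripts, the icLASER 3′ UTR difference was 0.0120 and its excess over the CDS 0.0309. The icSHAPE difference depended on scale, at 0.00463 once each profile was divided by its mean.

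icLASER in vivo stood apart from the other 3 profiles at the 3′ end. In 356 transcripts with at least 530 nt of 3′ UTR and 300 nt of CDS, the icLASER in vivo mean was 0.145 at 481 to 530 nt from the annotated 3′ end, 0.188 at 181 to 230 nt, 0.237 at 81 to 130 nt and 0.277 at 31 to 80 nt. Over the same distances icLASER in vitro went from 0.128 to 0.102, 0.0970 and 0.0696. icSHAPE in vivo went from 0.151 to 0.129, 0.0996 and 0.0857, and icSHAPE in vitro from 0.132 to 0.122, 0.106 and 0.0839. The icLASER in vivo profile thus climbed toward the 3′ end while the other 3 declined.

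Within single 3′ UTRs the contrast was as wide. The last scored 50 nt, at 31 to 80 nt from the 3′ end, exceeded the stretch at 431 to 530 nt in 299 of 356 3′ UTRs by icLASER in vivo, with medians of 0.267 and 0.137 and a median difference of 0.120. The other profiles had median differences of -0.0668 in icSHAPE in vivo, -0.0429 in icSHAPE in vitro and -0.0503 in icLASER in vitro, and the terminal stretch was lower in 312 of 354, 277 of 354 and 290 of 356 3′ UTRs. At matched trinucleotides, the nucleotides 31 to 130 nt from the end differed from those more than 230 nt away by 0.113 in icLASER in vivo, with all 64 trinucleotides higher. The matched differences were -0.0687, -0.0447 and -0.0630 in icSHAPE in vivo, icSHAPE in vitro and icLASER in vitro. Every base took part in icLASER in vivo, with G at 0.419 near the end and 0.260 away from it, A at 0.268 and 0.136, U at 0.218 and 0.113, and C at 0.142 and 0.0726. A plus U content was 61.4% near the end and 58.9% away from it. Among the 227 of these 3′ UTRs ending within 25 nt of the canonical 3′ end, the icLASER in vivo difference was 0.150. Read depth along the transcript is not part of the profiles, and its part in these slopes was not tested.

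Across the stop codon the step from CDS to 3′ UTR was small beside the slope at the 3′ end. In the same 356 transcripts, icLASER in vivo had 0.169 in the last 50 nt of CDS and 0.146 in the first 50 nt of 3′ UTR, and icSHAPE in vivo had 0.199 and 0.183. In vitro the pairs were 0.153 and 0.139 for icSHAPE and 0.153 and 0.140 for icLASER. These bins leave out the stop codon itself. Its second nucleotide averaged 0.321 in vivo and 0.219 in vitro by icSHAPE (960 transcripts), and 0.344 and 0.337 by icLASER (961 transcripts). Base content was not matched there. The first 100 nt of the 3′ UTR exceeded the rest by a median of 0.0301 in icSHAPE in vivo, 0.00986 in icSHAPE in vitro and 0.0102 in icLASER in vitro, and differed by -0.0271 in icLASER in vivo. Without the last 230 nt the first 100 nt no longer exceeded the rest in vitro.

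Distance from the 3′ end also entered the comparison of 3′ UTR and CDS, because short 3′ UTRs place coding nucleotides where long ones have 3′ UTR. At 331 to 480 nt from the 3′ end, icLASER in vivo had 0.157 ± 0.0676 (SD over 464 transcripts) where the position was 3′ UTR and 0.183 ± 0.0726 (SD over 355 transcripts) where it was CDS. icSHAPE in vivo had 0.152 ± 0.0493 and 0.180 ± 0.0427 there. In all 7 distance classes from 131 to 1680 nt, 3′ UTR nucleotides scored lower than CDS nucleotides in each profile, with overlapping spreads. Averaged over the 6 classes from 231 nt on, the difference was -0.0307, -0.0255, -0.0254 and -0.0219 in icSHAPE in vivo, icSHAPE in vitro, icLASER in vivo and icLASER in vitro. These values lay close together in the 4 profiles, but they set different transcripts against each other. Within transcripts and without the last 230 nt, the difference of icLASER in vivo was still the smallest of the 4.

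**Figure D1:**
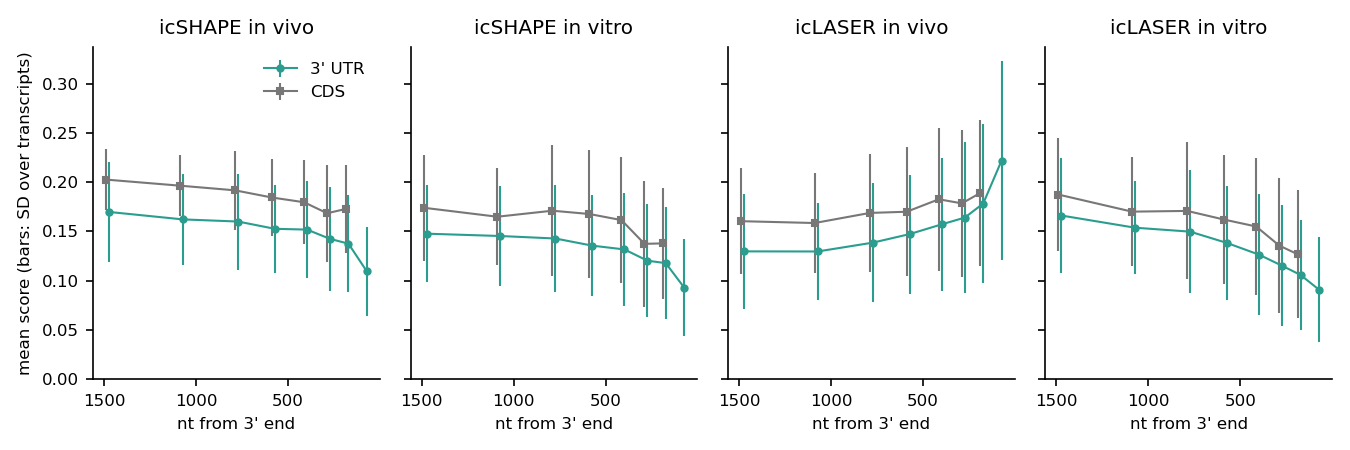
Mean score of 3′ UTR (green) and CDS (grey) nucleotides against distance from the annotated 3′ end in the 4 profiles, each point a mean over transcripts with that region at that distance and each bar the SD over them. The green points lie under the grey ones in every class where both exist, as at 331 to 480 nt in icLASER in vivo, 0.157 against 0.183.

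The whole 3′ UTR mean was higher in longer 3′ UTRs in 3 profiles and lower in icLASER in vivo. Scores are scaled within each transcript, and a longer 3′ UTR can make up more of its mRNA. These means therefore do not rank reactivity between transcripts, and the part of scaling in the trend was not tested. With the 3′ UTRs in 4 equal groups by length, from the shortest (130 to 249 nt) to the longest (825 to 10219 nt), the median icSHAPE in vitro score went from 0.0952 to 0.141 and that of icLASER in vitro from 0.0944 to 0.139. icSHAPE in vivo went from 0.132 to 0.159, and icLASER in vivo from 0.182 to 0.160. As the share of nucleotides scoring at least 0.5, the icLASER in vivo difference between the longest and the shortest group was -0.000200. With the nucleotides 31 to 130 nt from the 3′ end alone, icLASER in vivo went the other way, from 0.193 in the shortest to 0.264 in the longest group. icSHAPE in vivo then also turned, from 0.119 to 0.0889, and the in vitro values lay between 0.0759 and 0.0881 in every group. The icLASER in vivo minus in vitro difference of the whole 3′ UTR was 0.0859 in the shortest and 0.0203 in the longest group.

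By icSHAPE in vivo the gap between 3′ UTR and CDS widened with A and U content, with the 3′ UTR lower in every class. In windows of 50 nt more than 230 nt from the 3′ end, icSHAPE in vivo scores of 3′ UTRs went from 0.128 ± 0.0557 (SD, 761 windows) under 40% A plus U to 0.169 ± 0.0718 at 50 to 59%, and were 0.145 ± 0.0767 (2022 windows) at 70% and over. CDS windows went from 0.160 ± 0.0620 to 0.216 ± 0.0687 and 0.233 ± 0.0707 (319 windows). The most AU-rich windows thus differed most between the regions by icSHAPE in vivo. In icSHAPE in vitro the 3′ UTR windows had 0.108, 0.134 and 0.146 in the same classes, without a fall in the last, and the CDS windows 0.136, 0.177 and 0.205. By icLASER in vivo the 3′ UTR windows had 0.131, 0.128 and 0.178 in the same classes, and the CDS windows 0.163, 0.167 and 0.194.

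Predicted pairing separated icSHAPE scores in 3′ UTRs by ratios close to those of the CDS, and icLASER scores far less. The mean unpaired probability from RNAplfold had a median over transcripts of 0.477 in 3′ UTRs and 0.457 in the CDS. It was higher in the 3′ UTR for 67.2% of transcripts. From the least to the most unpaired of 5 equal classes of nucleotides, icSHAPE in vivo scores in 3′ UTRs went from 0.0864 to 0.202, a ratio of 2.34, and icSHAPE in vitro scores from 0.0627 to 0.185, a ratio of 2.95. The CDS ratios were 2.26 and 2.95. For icLASER the 3′ UTR ratios were 1.03 in vivo and 1.09 in vitro, and the CDS ratios 1.16 and 1.40. In the most unpaired class 3′ UTRs were still 0.202 against 0.280 for the CDS by icSHAPE in vivo.

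In vivo and in vitro profiles resembled each other to a like degree in both regions. Across positions of 1 region in 1 transcript, the median Pearson correlation of icSHAPE in vivo with in vitro was 0.502 over 964 3′ UTRs and 0.491 over 953 CDS, and for icLASER it was 0.608 and 0.611. Points within a profile pair share the transcript's scaling and base composition. Between reagents, the correlation was lower in 3′ UTRs, at 0.328 in vivo and 0.294 in vitro, against 0.383 and 0.366 in the CDS.

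Pumilio elements scored lower in cells than in refolded RNA, relative to their flanks. The element UGUANAUA occurred 165 times in 130 of the 964 3′ UTRs (13.5%), or 0.241 times per kb against 0.0253 in the CDS. Pumilio proteins bind it as single-stranded RNA and repress the mRNA. By icLASER, its mean over 157 sites in 123 genes was 0.207 in vivo and 0.222 in vitro, while the 20 nt on each side had 0.178 in vivo and 0.145 in vitro. The in vivo minus in vitro difference relative to the flanks was -0.0486 ± 0.125 (SD over sites), and it was below 0 at 105 of 157 sites. By icSHAPE it was -0.0254 ± 0.133, below 0 at 93 of 156 sites. In the CDS, where there were 20 sites, the relative difference was -0.0578 for icLASER and 0.0597 for icSHAPE.

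The icLASER difference sat mainly at 1 base. The G of the opening UGU averaged 0.406 in vivo and 0.561 in vitro over the sites, a difference of -0.154, and it was the most icLASER-reactive base of the element. The next base, U, had -0.0437, and the remaining bases had differences between -0.0244 and 0.0518. For icSHAPE the lowest differences were -0.0695 at the A before the closing UA and -0.0510 at the U after the G, which itself had -0.0473. The position of a score may be off by 1 nt, as above, and with scores moved 1 nt upstream or downstream the whole-element difference relative to the flanks was -0.0399 or -0.0531 for icLASER and -0.0224 or -0.0298 for icSHAPE.

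Single sites varied around these means. In the TUBB site shown above, icSHAPE means over the element were 0.264 in vivo and 0.453 in vitro, and icLASER means 0.320 and 0.297. In SUMO2 icSHAPE had 0.262 and 0.503 and icLASER 0.170 and 0.236, with the U after the G at 1 in both icSHAPE profiles. In TOMM6 icSHAPE had 0.258 and 0.357 and icLASER 0.405 and 0.341. As element means, all 3 sites were thus lower in vivo by icSHAPE, and SUMO2 alone by icLASER. By icLASER the printed flanks had 0.144 in vivo and 0.0959 in vitro in TUBB. They had 0.127 and 0.130 in SUMO2, and 0.172 and 0.124 in TOMM6. Relative to these shorter flanks, TUBB and SUMO2 were lower in vivo by icLASER and TOMM6 was higher. All 3 stayed lower by icSHAPE. The TOMM6 site began 109 nt from the 3′ end, where icLASER in vivo scores climbed. The part of that climb was not tested.

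AU-rich heptamers went the other way by icSHAPE. UAUUUAU, a core of the elements through which TTP-family and HuR proteins act on mRNA decay, occurred 170 times in 129 3′ UTRs. Over 158 sites its icSHAPE difference relative to the flanks was 0.0386 ± 0.182 (SD), above 0 at 85 sites, and over 156 sites the icLASER difference was -0.00992 ± 0.156. The third base of the heptamer, U, had 0.392 in vivo and 0.271 in vitro by icSHAPE. Both means were small beside the spread over sites, and the icSHAPE value was 0.0895 in transcripts of at least 20 RPKM. Of the sites shown above, RANBP1 had icSHAPE means of 0.433 in vivo and 0.178 in vitro, GDF15 0.0949 and 0.0859, and CEBPZOS 0.0681 and 0.107. RANBP1 alone was well apart between the conditions.

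The AU-rich element mRNAs on a list of 22 included 5 with a scored 3′ UTR, and 2 of these held UAUUUAU. By icLASER their 3′ UTR in vivo minus in vitro difference was at least 0.05 in 2 of 5 (49.2% of all 3′ UTRs), with a median of 0.0481 beside 0.0483 over all 3′ UTRs. MYC, a transcription factor with a short-lived mRNA, had icLASER 3′ UTR means of 0.285 in vivo and 0.163 in vitro and icSHAPE means of 0.111 and 0.133. TFRC, the transferrin receptor, whose 3′ UTR holds iron-responsive elements, had icLASER means of 0.146 and 0.166 and icSHAPE means of 0.166 and 0.137. These 2 mRNAs thus lay on opposite sides of 0 with both reagents.

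Among 16 mRNAs listed as Pumilio targets, 7 had a scored 3′ UTR and 5 of these held UGUANAUA. Their median icLASER in vivo minus in vitro difference was 0.102, beside 0.0483 over all 3′ UTRs, and it was at least 0.05 in 5 of 7 (49.2% of all). By icSHAPE it was 0.00301 beside 0.0278, and at least 0.05 in 1 of 7 (23.4% of all). KPNA2, a nuclear import receptor, had icLASER 3′ UTR means of 0.257 in vivo and 0.112 in vitro and icSHAPE means of 0.112 and 0.130. PCNA, the replication clamp, had 0.213 and 0.103 by icLASER and 0.119 and 0.133 by icSHAPE. Both thus scored higher in vivo by one reagent and lower by the other. Their 3′ UTRs were 246 and 330 nt long, and all 3′ UTRs in these length groups had median icLASER differences of 0.0859 and 0.0616.

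The mRNAs of 3′ UTR-binding proteins gave 8 scored 3′ UTRs from a list of 31. In icLASER in vivo 4 of 8 were higher than their CDS by at least 0.05 and 1 was lower (21.9% and 25.1% of all), with a median of 0.0545 beside -0.00416 over all transcripts. In icSHAPE in vivo 7 of 8 were lower by at least 0.05 (56.9% of all), with a median of -0.0762 beside -0.0584. PABPC1, the cytoplasmic poly(A)-binding protein, had icLASER 3′ UTR means of 0.308 in vivo and 0.289 in vitro, which were 0.190 and 0.164 above its CDS. KHSRP, an AU-rich element decay factor, had 0.259 in vivo and 0.0758 in vitro. PABPC1 was thus high under both conditions and KHSRP in cells.

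Ribosomal protein mRNAs, with 15 scored 3′ UTRs, had low icSHAPE scores in this region. Their median was 0.109 in vivo and 0.0722 in vitro, beside 0.149 and 0.119 over all 3′ UTRs. Their median length was 199 nt, and all 3′ UTRs of the shortest length group (130 to 249 nt) had nearer medians, 0.132 and 0.0952. The list was drawn up by gene symbol and took in RPL26L1, RPL39L, RPL7L1 and RPS27L. RPS23 was represented by a transcript with another stop codon than the canonical one. In icSHAPE in vivo 9 of 14 were lower than their CDS by at least 0.05 (56.9% of all), with a median of -0.0877. By icLASER their in vivo minus in vitro difference, 0.0465, was close to that over all 3′ UTRs. RPL37 and RPS27A had the lowest icSHAPE in vivo means, 0.0364 and 0.0365.

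The most extreme 3′ UTRs, among 499 transcripts with at least 300 scored nucleotides in both regions, were chosen by these values, which are given as a description. By icLASER, PRAME (a cancer-testis antigen, chr22:22547701-22548066) had a 3′ UTR mean of 0.399 in vivo and 0.159 in vitro, and LRRC8D (an anion channel subunit, chr1:89935646-89936001) had 0.344 and 0.0747. NUP188 (a nuclear pore protein, chr9:129006679-129007096) had 0.301 and 0.0550. These 3 were at once the highest above their CDS in vivo and the highest above their in vitro values. By icSHAPE all 3 were lower in vivo than in vitro, with 0.139 against 0.217 for PRAME. Their 3′ UTRs were 366, 356 and 418 nt long. The annotated 3′ end used here lay 610 nt from the canonical one in LRRC8D and matched it in PRAME and NUP188. All 3′ UTRs of 249 to 433 nt had a median icLASER in vivo minus in vitro difference of 0.0616. At 31 to 130 nt from the 3′ end the 3 had 0.434, 0.337 and 0.379 in vivo, beside a median of 0.195 in that length group. The part of that stretch in their means was not tested. CDK6, a cell cycle kinase with the longest 3′ UTR at 10219 nt, had a whole-UTR icLASER mean of 0.0856 in vivo and 0.167 in vitro. At 31 to 130 nt from its 3′ end, however, CDK6 had 0.485 in vivo and 0.0329 in vitro.

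At the low end, EIF3F and BAG2 had icSHAPE in vivo means of 0.0335 and 0.0647 over 3′ UTRs of 5840 and 5643 nt, against 0.339 in the CDS of each. Their icLASER in vivo means were 0.0578 and 0.0827. Of these 3′ UTR nucleotides, 5176 and 4832 were scored. In icSHAPE in vivo 3.16% and 5.30% scored at least 0.5, beside 9.38% over all 3′ UTRs. At 31 to 130 nt from its 3′ end EIF3F had 0.02 in vivo and 0.01 in vitro by icSHAPE. Read depth under these scores is unknown, so low reactivity cannot be told apart from few reads. EIF3E, also among the lowest 3, was represented by a transcript with another stop codon than the canonical one. ANP32E, a histone chaperone, had the lowest icLASER in vivo 3′ UTR relative to its CDS, with means of 0.0595 and 0.437. PTMA (prothymosin alpha), also among the lowest 3, had 0.111 in the 3′ UTR and 0.377 in the CDS. Both had a wide gap in icLASER in vitro too, with 0.0967 and 0.456 for ANP32E and 0.125 and 0.334 for PTMA. Their CDS means in vivo lay far above the median CDS, 0.175. CYCS (cytochrome c) had the widest gain in vivo by icSHAPE, with 0.203 against 0.0563, and close icLASER means of 0.126 and 0.134. The CYCS 3′ UTR used here was 394 nt long and ended 4651 nt from the canonical 3′ end. Among the 5 most highly expressed 3′ UTRs of this set, EEF1A1, translation elongation factor 1 alpha, had 0.117 and 0.0704 by icSHAPE and 0.124 and 0.0730 by icLASER, higher in vivo with both reagents. Its CDS was also higher in vivo, with 0.144 and 0.101 by icSHAPE and 0.157 and 0.0844 by icLASER.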

How the data were processed

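Reads from 14 K562 libraries were aligned by the authors to the Ensembl release 88 transcriptome, and per-position enrichment scores were computed with the icSHAPE pipeline, without its minimum hit coverage. The submitters' processing notes name Trimmomatic, Bowtie2 and GRCh38. The deposited profiles hold 1 RPKM value per transcript, normalized by the authors for length and library size, and per nucleotide a deposited enrichment score of the probed over the control libraries, scaled to run from 0 to 1 (16 scores lay outside, 0 of them in the 3′ UTRs kept). Replicates and controls were pooled, so the read depth under each score is unknown and nothing was tested.

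Transcripts were matched to GENCODE 44 by identifier and length (7652 of 10589 present in all 4 profiles). Means were taken with Python 3.11.15 and numpy 2.4.6. RNAplfold 2.7.2 used a window of 150 nt and a span of 100 nt. The estimators were tested on simulated scores. Genes named were the 3 highest and 3 lowest per reagent for each of the 2 differences in vivo, the 3 longest 3′ UTRs, the 5 of highest RPKM, members of 4 gene lists and the sites of highest expression. Only part of them is printed. The 3′ UTRs, lists and elements were chosen with earlier results of these data known. Alternatives varied membership, expression, scaling, flanks, distance from the 3′ end and a shift of 1 nt.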

Additional observations from a re-analysis of the deposited data

How the results depend on the processing

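Of 156 alternatives over 36 values, 121 kept the sign and lay within 0.01 or 1.5 times the value reported, 21 moved further and 14 took the other sign. The cause was not tested for any of them. The length and AU contrasts, the longest or most AU-rich of 4 equal groups of 3′ UTRs minus the shortest or least AU-rich, were 0.0271, 0.0457, -0.0220 and 0.0451 for length, and -0.0102, 0.00969, 0.0238 and 0.0232 for AU content, in icSHAPE in vivo, icSHAPE in vitro, icLASER in vivo and icLASER in vitro. With membership per profile, the icLASER in vivo 3′ UTR minus CDS difference was 0.00334. As the share of nucleotides scoring at least 0.5, that difference was -0.0180, icSHAPE in vivo minus in vitro was 0.0144 and its excess over the CDS 0.00767, the length contrast in icLASER in vivo -0.000200, the AU contrast -0.00349 in icSHAPE in vitro and 0.00835 in icLASER in vitro, and the 3′ end contrast in icLASER in vitro -0.0300. With profiles divided by their mean and returned to a common mean, icSHAPE in vivo minus in vitro was 0.00463 and its excess over the CDS 0.00851. At 20 RPKM and over (376 transcripts), that excess was 0.00935, the icLASER in vivo AU contrast 0.0476, the AU-rich heptamer 0.0895 by icSHAPE and -0.0301 by icLASER, and the 3′ UTR minus CDS correlation in vivo with in vitro -0.00806 for icSHAPE and -0.0253 for icLASER. By Spearman's rho the latter were -0.00523 and -0.00859, and icSHAPE with icLASER in vivo -0.0240. Moving scores 1 nt downstream gave -0.0223 for the AU-rich heptamer by icLASER.

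Chosen after seeing the data, leaving out the last 230 nt gave -0.0266 for the icLASER in vivo 3′ UTR minus CDS difference, 0.0120 for icLASER in vivo minus in vitro, 0.0309 for its excess over the CDS, and -0.000890, -0.00624 and -0.00262 for the first 100 nt minus the rest in icSHAPE in vitro, icLASER in vivo and icLASER in vitro. At the same distance from the 3′ end, 3′ UTR minus CDS was -0.0307, -0.0255, -0.0254 and -0.0219 in the 4 profiles. At 31 to 130 nt only, the length contrast was -0.0299, 0.00165, 0.0717 and -0.00840, and the AU contrast in icLASER in vitro 0.0111. No paired analysis was possible because the replicates of each group were pooled into 1 profile before deposit, which also meant that no replicate could be left out.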

Other observations

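The difference between codon positions seen in the CDS was not carried into the 3′ UTR. Over the last 150 nt of CDS in 827 transcripts, icSHAPE in vivo means at the 3 codon positions were 0.218, 0.162 and 0.180, and in the first 150 nt of the 3′ UTR, counted in the same frame, they were 0.165, 0.169 and 0.171. The spread between positions was 0.0560 in the CDS and 0.00569 in the 3′ UTR. icLASER in vivo had spreads of 0.0540 and 0.00299, and in vitro 0.0517 and 0.00242.

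Other elements in 3′ UTRs differed in their own ways. CU-rich UCUUUCU sites, a sequence that polypyrimidine tract binding proteins recognise, had an icLASER in vivo minus in vitro difference relative to their flanks of 0.0351 ± 0.106 (SD over 143 sites), and 0.000666 by icSHAPE. In the CDS the icLASER value of this motif was larger, 0.0545 ± 0.119 (SD over 56 sites). Over all 3′ UTRs, icLASER had 0.0884 in vivo and 0.0442 in vitro at UCU, and 0.150 and 0.0896 at UUU. The part of base content in the CU-rich value was not tested. GU-rich UGUUUGU sites had 0.0188 ± 0.142 by icSHAPE and 0.00204 by icLASER over 168 and 169 sites. Quaking sites, UACUAAC, were few, with -0.0178 by icSHAPE and 0.0155 by icLASER over 26 sites. The pentamer AUUUA scored 0.251 in 3′ UTRs and 0.424 in the CDS by icSHAPE in vivo, and 0.169 and 0.163 by icLASER in vivo.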
